A study of Sus scrofa with 2 samples.

Results

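The enzyme that makes extracellular lysophosphatidic acid (LPA) and the receptors that read it were examined in pig endometrium. The members were 6 genes, namely the enzyme ENPP2 and the receptors LPAR1, LPAR2, LPAR3, LPAR4 and LPAR6, chosen by name from 11063 named genes of the deposited table. LPAR5, the remaining receptor, and the phosphatases PLPP1, PLPP2 and PLPP3 were set beside them. Of the 6 members, 5 had a listed row, and LPAR4 was not analysed here because none of its RefSeq accessions was matched. The tissue was the endometrium of Yorkshire pigs at day 18 of pregnancy (YK18), taken after each uterine horn had been flushed, with 1 RNA-seq library from each of 2 pigs (replicate 1 and replicate 2). The pigs shared the background of 1 commercial herd and had been inseminated artificially. With 1 condition, the comparisons were between genes within a library and between the 2 pigs, and none was between conditions.

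LPA is a small signaling lipid outside the cell. Autotaxin, the protein of ENPP2, cuts choline from lysophosphatidylcholine and so releases LPA close to the cell surface. LPAR1, LPAR2 and LPAR3 belong to the EDG family of G protein-coupled receptors, which also holds the sphingosine 1-phosphate receptors, while LPAR4, LPAR5 and LPAR6 are closer to the purinergic P2Y receptors. The lipid phosphatases of the PLPP family remove the phosphate and end the signal. In the uterus, LPA is best known through Lpar3, whose loss in mice delays and crowds implantation, and in pigs LPA and its receptors have been described in the endometrium around the time of conceptus attachment. No sequence is shown for these genes.

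Levels are given in RPKM as deposited, reads scaled by a length and by the size of the library, with the rows of a gene summed. Each row is 1 RefSeq transcript. The number of reads behind a value was recovered from the steps of the RPKM, with 7466979 reads in replicate 1 and 7023108 in replicate 2 as library totals. The length of a row is the smallest that gives whole reads in both libraries, so the reads of a row are lower limits. Over 10234 mRNA rows with at least 40 reads, the median of these lengths was 212 nt. Whether the authors divided by the length of the whole transcript was not tested. Orders and folds between genes in RPKM rest on the length they used. Where a row holds 0 it is called listed at 0, which does not mean absent. The rows that bear a member's name numbered 14, of which 8 had reads in at least 1 library.

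The endometrium label was checked on marker genes. EPCAM, an epithelial surface protein, was at 5106 RPKM in replicate 1 against 5128 RPKM in replicate 2, and the progesterone receptor PGR was at 530.9 and 434.2 RPKM. Of 6 endometrial markers 4 were above 0 in both libraries, and UPK1B was listed at 0. The 4 include FOXA2, with only 1 read in replicate 1 and 3 reads in replicate 2. HOXA10 had 0 reads in replicate 1 and 1 read in replicate 2. All 6 epithelial markers had a row and KRT8 was listed at 0. The libraries differed in some cell markers. The leukocyte genes PTPRC and CD3E were higher in replicate 2. Of the stromal genes, COL3A1 and LUM were lower there and THY1 and DCN were higher. CKM, a creatine kinase of striated muscle, had 151 reads in replicate 1 and 1 read in replicate 2, and MYH1 had 105 reads and 1 read. The part of any of these differences in the results on LPA genes was not tested. In whole tissue, fewer cells of a type and less RNA in each cell cannot be told apart.

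Among the receptors, LPAR1 had the highest level per length, LPAR6 the next and LPAR3 a lower one, and LPAR2 was close to 0. LPAR1, the most widely expressed LPA receptor, was at 426.1 RPKM in replicate 1 against 343.0 RPKM in replicate 2 (384.6 ± 58.8, mean and SD, n = 2). Its level stood at percentile 84.2 of the 6985 named genes above 0 in both libraries in replicate 1, and at percentile 80.9 in replicate 2. LPAR6, a receptor of the P2Y type known for its part in hair growth, was at 79.6 and 60.1 RPKM, with a mean of 69.9 ± 13.8 RPKM (SD, n = 2). The 2 values of LPAR1 did not overlap with those of LPAR6, and LPAR1 was 5.35 times as high as LPAR6 in replicate 1 and 5.70 times in replicate 2. LPAR1 made up 82.0% of the summed RPKM of the member receptors in replicate 1 and 81.9% in replicate 2.

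LPAR3, the receptor tied to implantation in the mouse, was at 14.1 RPKM in replicate 1 against 15.03 RPKM in replicate 2. Their mean and SD were 14.6 ± 0.632 RPKM (n = 2), and of the 4 members above 0 in both libraries LPAR3 had the smallest SD. The levels lay at percentiles 40.5 and 39.8, below the middle of the expressed named genes. Of its 2 rows, the curated transcript NM_001162402.1 was listed at 0 in both libraries, and XM_005656117.1 held all reads. LPAR6 was 5.63 times as high as LPAR3 in replicate 1 and 4.001 times in replicate 2.

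LPAR2, a receptor of the EDG type, was listed at 0 in replicate 1 and at 0.702 RPKM in replicate 2. The value in replicate 2 came from 1 recovered read, a lower limit, in each of 3 rows, XM_005654915.1, XM_005654916.1 and XM_005654917.1. NM_001162401.1 and XM_005654918.1 were listed at 0 in both libraries. A count of 0 in replicate 1 allows up to 3 reads, which is 0.671 RPKM for XM_005654915.1, at a length of 599 nt. If reads and length are as recovered, the difference between the pigs was thus not detectable at this depth. LPAR5, a receptor found on immune cells and platelets, was at 3.67 RPKM in replicate 1 against 7.13 RPKM in replicate 2, lower per length than LPAR3 in both libraries. In reads this order turned in replicate 2, with 64 reads for LPAR5 and 53 for LPAR3, while in replicate 1 there were 35 and 53 reads.

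The order of LPAR1 and LPAR6 depended on the division by length. LPAR1 rested on 70 reads in the first pig and 53 in the second, at a recovered length of 22 nt. LPAR6 had 387 and 275 reads at 651 nt. In reads per 1000000 reads of the library, LPAR6 was at 51.8 in replicate 1, with a 95% exact binomial interval of 46.8 to 57.3, and at 39.2 (34.7 to 44.1) in replicate 2. On the same scale LPAR1 was at 9.38 (7.31 to 11.8) in replicate 1 and 7.55 (5.65 to 9.87) in replicate 2, so that without length LPAR6 was 5.53 and 5.19 times as high as LPAR1. LPAR3, with 53 reads in each library, was at 7.10 and 7.55 reads per 1000000 reads and overlapped with LPAR1. A length of 22 nt is unusual, since of 10234 mRNA rows with at least 40 reads only 34 (0.332%) had a length this short, and the median was 212 nt. The true length of the LPAR1 row is a whole multiple of 22 nt, which would raise its reads by the same factor and leave its RPKM as deposited. From a factor of 6 upward LPAR1 would pass LPAR6 in reads as well, if the reads of LPAR6 stayed as recovered. Those of LPAR6 are lower limits too, so the order in reads is not settled. Such intervals hold for counting error alone, because PCR copies are not independent molecules.

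**Figure D1:**
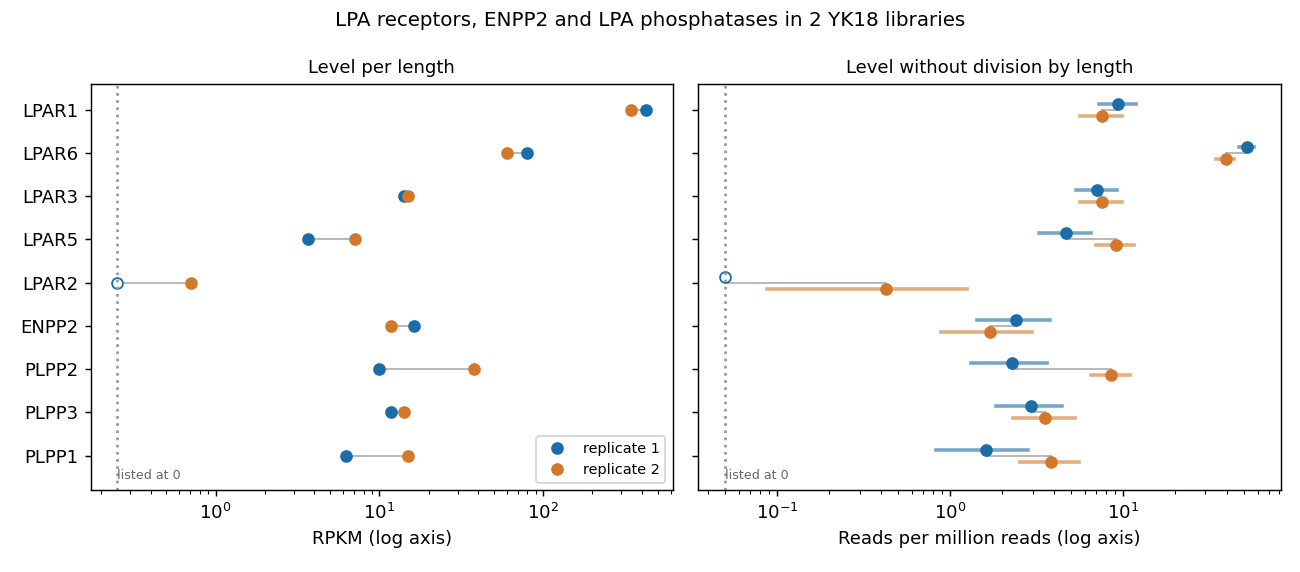
Level of each gene in YK18 replicate 1 (blue) and replicate 2 (orange), in RPKM on the left and in reads per 1000000 reads on the right, both on log axes. Horizontal bars on the right are exact 95% binomial intervals, grey lines join the 2 pigs, and an open circle on the dotted line marks a gene listed at 0. LPAR1 is highest per length, at 426.1 and 343.0 RPKM, and LPAR6 is highest in reads, at 51.8 and 39.2 reads per 1000000 reads.

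ENPP2 was listed at a low level in both pigs. It was at 16.3 RPKM in replicate 1 against 11.7 RPKM in replicate 2, with a mean of 13.99 ± 3.25 RPKM (SD, n = 2), and stood at percentiles 42.5 and 37.0 of the expressed named genes. Behind these values were 18 reads and 12 reads, or 2.41 (1.43 to 3.81) and 1.71 (0.883 to 2.98) reads per 1000000 reads, with 95% exact binomial intervals. Of the 5 listed rows of ENPP2, XM_003125510.3 held 18 and 11 reads, XM_005662884.1 had 0 and 1 read, and XM_003125509.3, XM_003125511.3 and XM_005662883.1 were listed at 0 in both libraries. The member receptors together, at 519.9 RPKM in replicate 1 against 418.9 RPKM in replicate 2, were 31.9 and 35.9 times as high as ENPP2. In reads the receptors had 510 and 384 and were 28.3 and 32.0 times as high. In RPKM the values of ENPP2 overlapped with those of LPAR3 and of all 3 phosphatases. In reads per 1000000 reads the 2 values of ENPP2 lay below those of LPAR3 and PLPP3, and overlapped with those of PLPP1 and PLPP2. The binomial intervals of ENPP2 and LPAR3 were apart in each pig. Those of PLPP3 began at 1.85 and 2.30, inside the intervals of ENPP2, so ENPP2 and PLPP3 were not separated by counting error. Because recovered reads are lower limits, neither order in reads is settled.

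The phosphatases that degrade LPA had RPKM values that overlapped with ENPP2, and their sum was above ENPP2 and below the receptors in both pigs. PLPP1 was at 6.25 RPKM in replicate 1 against 14.96 RPKM in replicate 2. PLPP2 was at 9.94 RPKM in replicate 1 against 37.7 RPKM in replicate 2. PLPP3, the phosphatase known for its part in blood vessels, was at 11.7 RPKM in replicate 1 against 14.2 RPKM in replicate 2. All 3 were thus higher in replicate 2, though only PLPP2 passed the test described below. The sum was 27.9 RPKM in replicate 1 against 66.8 RPKM in replicate 2, which is 1.71 times ENPP2 in the first pig and 5.72 times in the second. In reads per library total, the sum of the phosphatases in replicate 2 was 2.34 times that in replicate 1 (95% exact interval 1.66 to 3.32), and the sum of the member receptors was 0.8005 times (0.699 to 0.916). As recovered, LPAR6 held 387 of the 510 receptor reads in replicate 1 and 275 of 384 in replicate 2, while LPAR3 had 53 in each. The receptor ratio is thus mostly that of LPAR6. PLPP2 held 17 of the 51 phosphatase reads in replicate 1 and 60 of 112 in replicate 2, most of the added reads. The receptors were 18.6 times as high as the phosphatases in replicate 1 and 6.27 times in replicate 2. Without LPAR1, whose length is in doubt, the receptors were 3.36 times as high in replicate 1 and 1.14 times in replicate 2. By RPKM the order of all 9 genes was LPAR1, LPAR6, PLPP2, LPAR3, ENPP2, PLPP3, PLPP1, LPAR5 and LPAR2. From PLPP2 to LPAR5 the values of each gene overlapped with those of the next, so this middle of the order was not resolved by 2 pigs.

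The rows were then compared between the 2 pigs with a two-sided exact binomial test on recovered reads, adjusted by Benjamini-Hochberg over all 25584 rows with reads. The test compares 2 libraries of 1 condition and covers counting error, so a row that passes differed between these pigs beyond counting error. Of all rows tested 13.7% passed, 7.66% as higher in replicate 2 and 6.04% as lower. Of the 8 member rows with reads 1 passed, a share close to that of all rows. It was LPAR6, with 387 reads in replicate 1 and 275 in replicate 2. LPAR6 was 1.32-fold lower in replicate 2 (95% interval 1.13 to 1.55, adjusted p = 0.00446 by the exact binomial test). Of the 6 endometrial markers 3 were also lower in replicate 2, namely PGR, ESR1 and HOXA11, and their list summed to 797.5 RPKM in replicate 1 against 636.2 RPKM in replicate 2. Of the epithelial markers, CDH1 and KRT18 were lower, CLDN4 was higher and EPCAM did not pass. The part of these cells in the value of LPAR6 was not tested. The span of LPAR6 lies inside that of another gene, RB1, in the Sscrofa11.1 annotation, RB1 had no matched row, and whether the counting used strand is not stated in the sources used here.

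The other members did not pass. LPAR1 was 1.24-fold lower in replicate 2, with an interval from 0.857-fold to 1.81-fold (adjusted p = 0.644, exact binomial test). If the length of the LPAR1 row were 220 nt, its reads would be 700 and 530 and the same ratio would pass, with an adjusted p of 0.00199 by the exact binomial test. The call on LPAR1 therefore rests on a length that is not known. LPAR3 had a ratio of replicate 2 to replicate 1 of 1.06, with an interval from 0.713 to 1.59 (adjusted p = 1, exact binomial test). The main row of ENPP2 had a ratio of 0.650, with an interval from 0.277 to 1.45 (adjusted p = 0.686, exact binomial test). The interval for ENPP2 reaches a level 3.61-fold lower in replicate 2. The 4 rows of the members with at least 10 reads were those of ENPP2, LPAR1, LPAR3 and LPAR6.

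LPAR5 had a ratio of 1.94, with an interval from 1.27 to 3.02 (adjusted p = 0.0155, exact binomial test), and was higher in replicate 2. The leukocyte marker PTPRC was also higher there, with 526.1 RPKM in replicate 1 against 845.5 RPKM in replicate 2, and so was CD3E, with 67.5 against 127.8 RPKM. Of 6 leukocyte markers 5 had a row, 2 were higher in replicate 2, CD14 and CD163 did not pass, and CD79A was listed at 0. Their summed level was 643.1 RPKM in replicate 1 against 1012 RPKM in replicate 2. The part of leukocytes in the values of LPAR5 and PLPP2 was not tested. Of the 4 phosphatase rows with reads 1 passed, namely XM_005661427.1 of PLPP2. Of all rows tested 13.7% passed, and of rows with at least 10 reads 23.0%. It had 17 reads in replicate 1 and 56 in replicate 2, a ratio of 3.50 with an interval from 2.01 to 6.43 (adjusted p = 1.83e-05, exact binomial test). PLPP1, with 12 and 27 reads, had a ratio of 2.39 with an interval from 1.17 to 5.18, and did not pass after adjustment (adjusted p = 0.069, exact binomial test). The span of PLPP1 overlaps with those of SKIV2L2 and SLC38A9. PLPP3, with 22 and 25 reads, had a ratio of 1.21 with an interval from 0.654 to 2.25 (adjusted p = 0.908, exact binomial test).

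**Figure D2:**
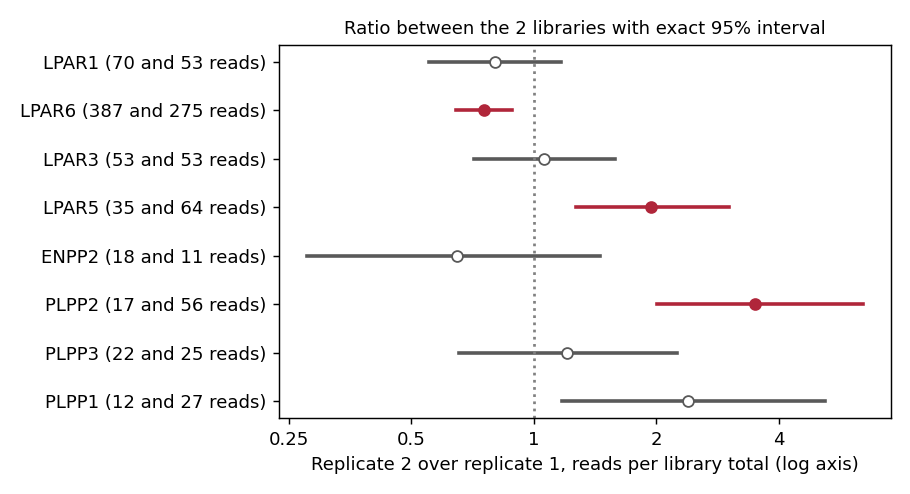
Ratio of replicate 2 to replicate 1 in reads per library total, on a log axis, for the 8 rows of these genes with reads in both libraries. Points are ratios, bars are exact 95% intervals, and filled red points had an adjusted p under 0.05. LPAR6 lies below 1 at 0.755, and LPAR5 and PLPP2 lie above 1 at 1.94 and 3.50.

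The plot of all rows with reads in both libraries places these ratios among the rest. LPAR6 had 387 and 275 reads, the most of the LPA genes, and passed at a small ratio. Among rows with as few reads as ENPP2 and PLPP3, those that passed had larger ratios.

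**Figure D3:**
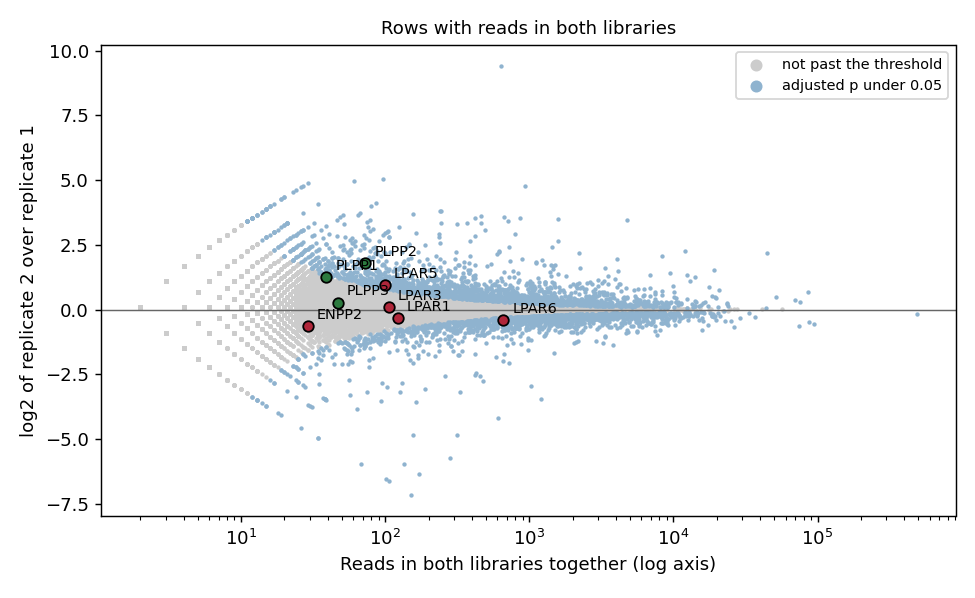
The log2 ratio of replicate 2 to replicate 1 against the reads of both libraries together (log axis), for every row with reads in both. Grey rows did not pass, blue rows had an adjusted p under 0.05, red circles are ENPP2 and the receptors, and green circles are the phosphatases. LPAR6, LPAR5 and PLPP2 lie in the blue region.

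Listing at 0 was more frequent in genes with more rows, and LPAR2 and ENPP2 are such genes. Of the named genes with 1 listed row, 21.1% were at 0 in both libraries, and of the rows of genes with 5 or more listed rows, 85.8% were. LPAR1, LPAR5 and LPAR6 each had 1 row, and each was above 0. LPAR3, PLPP1 and PLPP3 each had 2 rows, of which 1 was listed at 0. ENPP2 and LPAR2 each had 5 rows, of which 3 and 2 were listed at 0. Among genes with 5 or more rows, 51.6% had every row at 0, as against 40.3% of genes with 2 rows. How reads shared by transcripts of a gene were counted is not given in the sources used here, and its part in the levels of ENPP2 and LPAR2 was not tested.

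**Figure D4:**
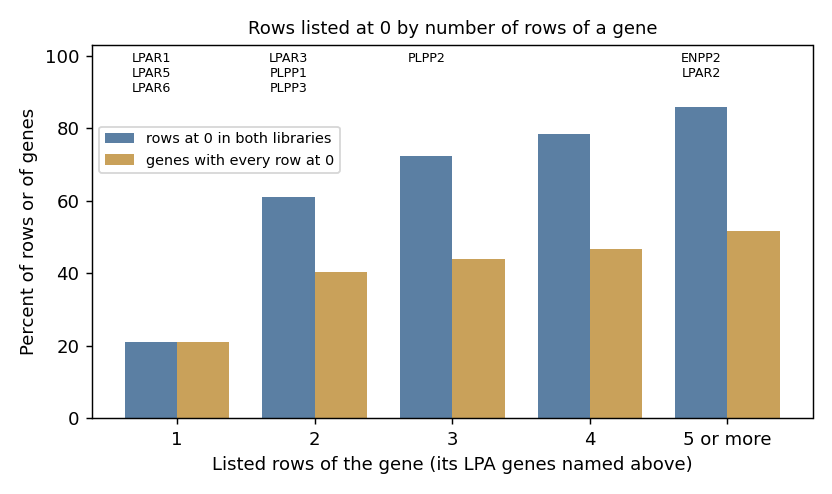
Percent of rows listed at 0 in both libraries (blue) and percent of genes with every row at 0 (tan), by the number of listed rows of the gene. Rows at 0 make up 21.1% for genes of 1 row and 85.8% for genes of 5 or more, and the names above the bars show where the LPA genes fall.

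The wider LPA pathway was described from gene lists of 87 genes in all, of which 57 had a row, 39 had reads in each library and 12 were at 0 in each. Of the 45 genes with reads in at least 1 library, 9 had a row that passed as higher in replicate 2 and 2 as lower, beside 7.66% and 6.04% of all rows tested. Those shares are per row, not per gene, and include rows with few reads. Among rows with at least 10 reads 23.0% passed in either direction, so no excess is read from the count. The median log2(RPKM + 1) difference between the pigs, replicate 2 minus replicate 1, was 0.222 over the pathway genes with reads and 0.0524 over all 8121 named genes with reads. For the 5 members with reads the median was -0.312, and for the 3 phosphatases it was 1.14.

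Of 16 other enzymes that make LPA or its precursors, 11 had a row and 7 were above 0 in both libraries. None of the 7 passed the test, where 13.7% of all rows tested passed, and 4 (PLA1A, GPAT3, GPAT4 and PLA2G6) were listed at 0. PLD1, a phospholipase D, was at 174.7 RPKM in replicate 1 against 204.0 RPKM in replicate 2. AGK, an acylglycerol kinase that makes LPA inside the cell, was at 108.3 and 80.3 RPKM, and PLA2G4A, the cytosolic phospholipase that frees arachidonic acid, was at 44.1 and 29.2 RPKM. All were above ENPP2 in both libraries. ENPP4 and ENPP5, relatives of ENPP2, had 1 read in each library.

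Of 15 other enzymes and relatives that use LPA or resemble its phosphatases, 13 had a row, and 8 were above 0 in both libraries. Of these 8, 3 passed as higher in replicate 2 and none as lower, where 7.66% of all rows passed as higher and 6.04% as lower. Among rows with at least 10 reads, 23.0% passed in either direction. AGPAT3, an acyltransferase that turns LPA into phosphatidic acid, was the highest of them at 343.4 RPKM in replicate 1 against 390.4 RPKM in replicate 2, and it did not pass. AGPAT2, an enzyme of the same step, was at 127.2 and 184.3 RPKM (adjusted p = 0.0027, exact binomial test). PLPP4, a further lipid phosphatase, was at 36.4 and 65.0 RPKM (adjusted p = 0.0156, exact binomial test). PLPPR3, a relative of the phosphatases, was at 14.9 and 35.4 RPKM (adjusted p = 8.46e-06, exact binomial test). ACP6, a mitochondrial phosphatase of LPA, was at 148.0 and 125.1 RPKM and did not pass.

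Of 10 genes known to respond to LPA, 7 had a row and 5 were above 0 in both libraries. PTGS2, the inducible enzyme of prostaglandin synthesis, was at 1316 RPKM in replicate 1 against 1621 RPKM in replicate 2, and passed with a ratio in reads of 1.23 (adjusted p = 6e-18, exact binomial test). HBEGF, a growth factor of the EGF family, had 42 and 152 reads, a ratio of 3.85 (adjusted p = 8.91e-16, exact binomial test). CCN2, a matricellular protein, was lower in replicate 2, with 1557 against 1088 RPKM (adjusted p = 8.48e-39, exact binomial test). SRF and MYC did not pass, IL6 had 1 read in replicate 2, and CXCL8 was listed at 0. Of 10 relatives of the receptors, 6 had a row and 2 were above 0 in both libraries. S1PR3 was at 7.28 and 6.22 RPKM, and GPR34, a lysophosphatidylserine receptor of myeloid cells, was at 22.1 and 41.4 RPKM (adjusted p = 2.66e-07, exact binomial test). GPR34 was thus higher in the same library as LPAR5, PTPRC and CD3E, while the myeloid markers CD14, at 14.8 and 17.6 RPKM, and CD163, at 34.8 and 20.8 RPKM, did not pass. The part of leukocytes in the value of GPR34 was not tested.

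**Figure D5:**
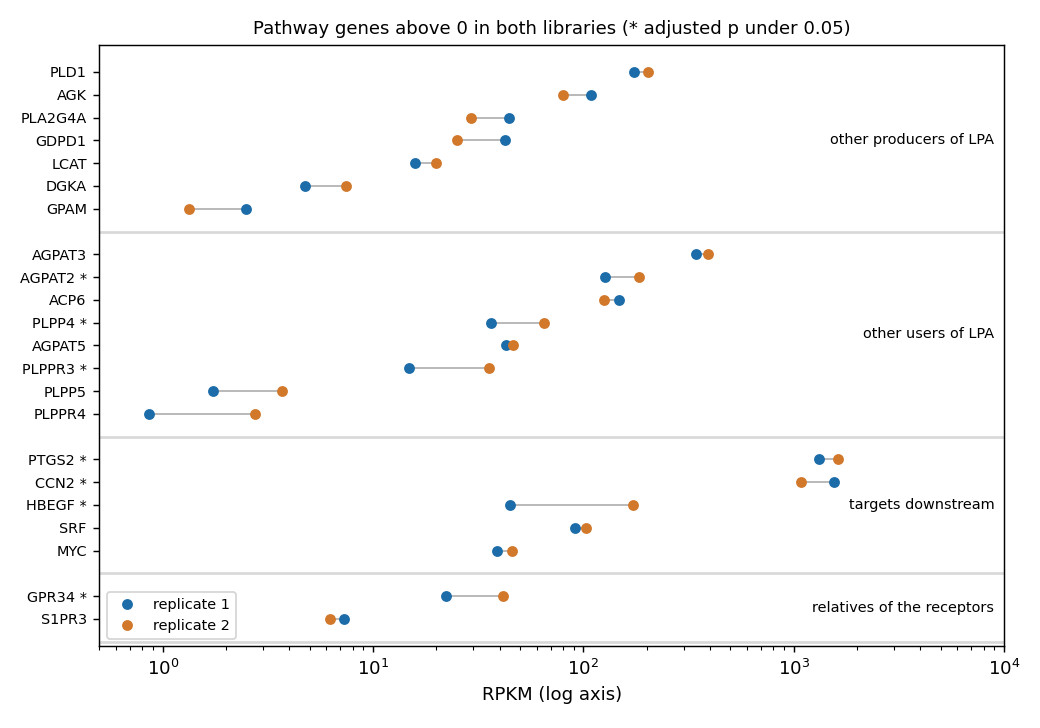
RPKM (log axis) of pathway genes above 0 in both libraries, from the lists described in the text, with replicate 1 in blue and replicate 2 in orange, grouped by role. A star marks genes with an adjusted p under 0.05. PTGS2, at 1316 and 1621 RPKM, and CCN2, at 1557 and 1088 RPKM, are the highest of the genes drawn, which do not cover every list counted in the text.

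The named genes with values most like those of each member were found by the distance in log2(RPKM + 1) over the 2 libraries, among 7459 genes. They were SLC46A2 at 16.3 and 11.5 RPKM for ENPP2, ATRX at 426.5 and 341.5 RPKM for LPAR1, IL1RAPL2 at 14.15 and 15.04 RPKM for LPAR3, and ZNF318 at 79.9 and 60.3 RPKM for LPAR6. The second nearest were PFDN5, WASF2, HSPA6 and NFKB1 in the same order. With 2 libraries, likeness means only a like level in each pig.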

How the data were processed

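RNA-seq libraries of endometrium from 2 YK18 pigs were analysed. Reads had been counted with HTSeq by the authors, who deposited them as RPKM with 1 row per transcript and 1 column per library. The aligner, genome build and library strand are not given in the sources used here. Rows were named from the RefSeq table of Sscrofa11.1, with the version number ignored, for 16072 of 38222 mRNA rows. A member may therefore have further rows without a name. Rows of a gene were summed, and no filter was applied.

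Library totals were found from the lowest RPKM steps. For each row the smallest length up to 20000 nt giving whole reads (within 0.0001) was used. Data of 24214 rows for replicate 1 against replicate 2 were simulated from the recovered totals, lengths and reads. Both totals were found again, and lengths were exact for 86.1% of rows and exact or a divisor for 100%. Of 200 rows changed 4-fold 185 were called, with 7 unchanged rows. Because the simulation took the recovered lengths as true, it cannot show that they are those behind the deposited values. Exact binomial tests used these reads and a threshold of 0.05 on the adjusted p-value. Python 3.11.15, numpy 2.4.6, pandas 2.3.3, scipy 1.17.1 and matplotlib 3.10.9 were used.

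Members and lists were chosen with earlier results of these data known. Named were all members, PLPP1, PLPP2 and PLPP3, other listed genes on which a result turned, and the 2 genes nearest each member with a mean of at least 1 RPKM. CKM and MYH1 were chosen after seeing their values. Alternatives were rescaling, reads without length, other matching, the highest row, filters, pseudocounts and each replicate left out. A list of signaling genes counted among the 87 pathway genes is not reported here.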

Additional observations from a re-analysis of the deposited data

How the results depend on the processing

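No paired analysis was possible because both libraries are of 1 condition. Of the alternatives, 36 were labelled as like the main result and 15 as moved. The label did not mean a small shift. With 1 pig left out the phosphatases were at 27.9 or 66.8 RPKM against 47.4 RPKM, and both were labelled as alike. None of the alternatives turned the sign of the 3 log2 ratios between ENPP2, the receptors and the phosphatases. The order of single genes did turn in reads without length, among others for LPAR1 against LPAR6 in both libraries and for LPAR3 against LPAR5 in replicate 2. ENPP2 was above LPAR5 in RPKM and below it in reads in both libraries. In replicate 1 ENPP2 was also above LPAR3 and PLPP3 in RPKM and below them in reads. Rescaling each library to a sum of 1000000 changed by construction the levels of ENPP2 from 13.99 RPKM to 3.27, of the receptors from 469 RPKM to 110, and of the phosphatases from 47.4 RPKM to 11.1. In reads per 1000000 reads they were 2.06, 61.5 and 11.4, and the log2 ratio of ENPP2 to the receptors was -4.91 in place of -5.08. With the version number matched, the receptors were at 385 RPKM, the phosphatases at 1.43 RPKM and only LPAR1 was above 0 in both libraries, 1 member in place of 4, ENPP2 had no matched row, and the ratios gave no value. Without LPAR1, chosen after seeing the data, the receptors were at 84.8 RPKM, ENPP2 against them at -2.61 and the phosphatases against them at -0.965 in place of -3.43, all on the log2 scale for the ratios.

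Across the values without replicate 1 or replicate 2, ENPP2 ran from 11.7 to 16.3 RPKM, the receptors from 419 to 520 RPKM, and the phosphatases from 27.9 to 66.8 RPKM, so that the level of the phosphatases rests on which pig is taken. The log2 ratios ran from -5.16 to -5.00 for ENPP2 to receptors, from -4.22 to -2.65 for phosphatases to receptors and from 0.778 to 2.52 for phosphatases to ENPP2. The members above 0 numbered 4 or 5. The 1 member that differed, LPAR6, passed also over rows with at least 10 reads (23.0% of such rows passed) and with the median ratio as scale (13.8% of all rows tested). With a log2(RPKM + 1) ratio of at least 1 as the limit 0 members differed, where 10.9% of the 8121 named genes with reads did. With pseudocounts of 0.1 and 0.01 it was LPAR2 in place of LPAR6, through its listing at 0. Of the same genes 25.6% and 27.1% differed at these pseudocounts. With rows under 50 nt counted at a longer length, chosen after seeing the data, 2 members passed, LPAR1 and LPAR6. Of all rows tested 14.3% passed under this setting. The few reads of ENPP2 and LPAR2 limit their ratios.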
